A study of Mus musculus with 49 samples.

Results

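Frontal cortex libraries of high fat diet-fed mice differed widely in how much myelin RNA they held, also inside a single study group. The 12 libraries richest and the 12 poorest in 3 oligodendrocyte transcripts were compared, out of 49 libraries in all. They were chosen by measured values: the mean log2 level of Mobp, Opalin and Ugt8a was taken in each library, the mean of its group was subtracted, and the highest and lowest 12 were kept as the myelin-rich and myelin-poor sets. The other 25 libraries lay between them.

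Poly(A) RNA was sequenced from wild-type mice after 2 months on the diet (2MHF, 9 libraries) or 4 months (4MHFW, 10 libraries), and from mice labelled AKO, for amylin knockout, after 4 months (4MHFA, 10 libraries). Mice with a conditional human amylin transgene were fed the diet for 4 months and given vehicle (CreVE, 10 libraries) or tamoxifen, the drug that switches such transgenes on (CreTM, 10 libraries). For CreVE and CreTM the labels give 2 months after injection. All groups were on the high fat diet, so none is a lean control. The driver of the Cre, the strain, sex and age of the mice, and the hour of collection were not stated in the labels read here. Titles do not say whether libraries came from separate animals, and the spread behind each p-value may therefore be partly technical.

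Depth was 29.2 to 75.6 M reads (M for 1e+06) per library (median 42.0 M), with 17089 to 18787 genes holding a read. Rich libraries had 29.2 to 69.5 M reads (median 43 M) and poor libraries 29.8 to 68.8 M (median 53.7 M). Iapp, the amylin gene targeted in the knockout, had 36 to 116 reads in each of the 10 libraries labelled AKO. The other 39 libraries together held a single read. Wild-type libraries held 0, so an absence of reads could not have shown a knockout. Reads were instead present in the libraries labelled AKO, the reverse of what a loss of Iapp RNA would give. Where in the gene the reads lie was not tested. Markers of cortical excitatory neurons were high in both sets, at a list level of 12.25 to 13.70 in the rich and 12.36 to 13.80 in the poor libraries.

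Myelin is the spiral sheath of oligodendrocyte membrane that insulates axons. It is made mainly of galactolipids, cholesterol and a few abundant proteins, and it is much denser in white matter and the striatum's fibre bundles than in superficial cortex. Oligodendrocyte precursors divide and mature into newly formed and then myelinating cells under the transcription factors Olig2, Sox10, Nkx6-2 and Myrf. In RNA from bulk tissue, fewer oligodendrocytes and less RNA per oligodendrocyte cannot be told apart.

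The 3 genes that ordered the libraries and Mog, the gene with the smallest p in the comparison, are shown by up to 250 bases before a transcript start in the RefSeq annotation of GRCm38.p6, because SOX factors and MYRF drive myelin genes. Capitals mark the SOX core ACAAAG or its reverse complement CTTTGT, and the MYRF words CTGGCAC and CTGGTAC or their reverse complements, and each sequence is written along the gene's own strand. The windows are chr9:120149492-120149741 on the plus strand for Mobp, and on the minus strand chr19:41077114-41077363 for Opalin, chr3:125938683-125938902 for Ugt8a (220 bases, since 30 bases of its window lie inside the listed span of the gene) and chr17:37023399-37023648 for Mog.
Mobp: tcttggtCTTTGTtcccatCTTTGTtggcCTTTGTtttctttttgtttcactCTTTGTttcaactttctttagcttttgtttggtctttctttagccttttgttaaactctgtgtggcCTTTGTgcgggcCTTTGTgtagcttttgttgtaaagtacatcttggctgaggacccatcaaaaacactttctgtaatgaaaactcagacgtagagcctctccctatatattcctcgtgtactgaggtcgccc
Opalin: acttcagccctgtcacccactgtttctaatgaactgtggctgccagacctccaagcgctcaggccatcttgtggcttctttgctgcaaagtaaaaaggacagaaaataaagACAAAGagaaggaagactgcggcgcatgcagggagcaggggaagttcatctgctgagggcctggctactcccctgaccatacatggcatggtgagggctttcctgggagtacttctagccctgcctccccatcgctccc
Ugt8a: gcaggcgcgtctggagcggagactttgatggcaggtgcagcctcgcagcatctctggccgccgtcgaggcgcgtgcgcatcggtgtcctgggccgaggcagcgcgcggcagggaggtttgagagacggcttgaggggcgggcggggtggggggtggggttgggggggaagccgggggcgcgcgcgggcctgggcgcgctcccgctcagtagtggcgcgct
Mog: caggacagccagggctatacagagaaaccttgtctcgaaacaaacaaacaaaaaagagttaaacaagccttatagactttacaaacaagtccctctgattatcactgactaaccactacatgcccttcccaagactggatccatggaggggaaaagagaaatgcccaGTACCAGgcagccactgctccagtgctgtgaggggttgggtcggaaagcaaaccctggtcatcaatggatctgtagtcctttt
The Mobp window held 6 SOX cores, all in the CTTTGT orientation, Opalin held 1 and Mog held 1 MYRF word. The Ugt8a window held neither. No other window among 32851 held as many SOX cores as that of Mobp, a count looked up after the Mobp window was seen. Among all genes, 18.6% of 27025 had a SOX core in such a window and 6.8% a MYRF word. Of 39 genes called higher on the 3 lists of myelin and mature oligodendrocyte genes described below, 29 matched a window by symbol, and 7 of these (24.1%) had a SOX core and 7 (24.1%) a MYRF word. These matches describe letters only.

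Mobp encodes myelin-associated oligodendrocyte basic protein (gene ID 17433; chromosome 9, 120149742 to 120181488). On the log2(normalised reads + 1) scale used throughout for levels, it lay at 12.53, 13 and 13.19 (lowest, median, highest) in the 12 rich libraries and at 11.64, 12.31 and 13.02 in the 12 poor ones. Opalin, a glycoprotein of the oligodendrocyte membrane (gene ID 226115; chromosome 19, 41061959 to 41077113), lay at 8.75, 9.31 and 9.53 against 7.05, 8.18 and 9.13. Ugt8a, the enzyme that makes galactosylceramide, a main lipid of myelin (gene ID 22239; chromosome 3, 125865272 to 125938682), lay at 10.47, 10.77 and 11.08 against 9.70, 10.04 and 10.93. For each of the 3 genes the raw ranges of the sets overlap, since the ordering removed the group means. With group in the model the sets differed by 0.72, 1.004 and 0.63 on the log2 scale, which the ordering itself fixes.

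The cut was not a natural gap. The last rich library, CreTM 9, had a centred level of 0.16 and the next below it, CreTM 15, one of 0.15. The last poor library, 4MHFW 21, had -0.17 and the next above it, 4MHFW 24, had -0.16. The whole range ran from -0.70 to 0.78. The sets drew unevenly on the groups. CreVE gave 4 rich and 5 poor libraries and 2MHF 4 and 3, whereas CreTM gave 2 and 2, 4MHFA 2 and 1, and 4MHFW only 1 poor library. That single library adds nothing to a comparison made within groups, so the contrast rests on 4 groups.

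**Figure D1:**
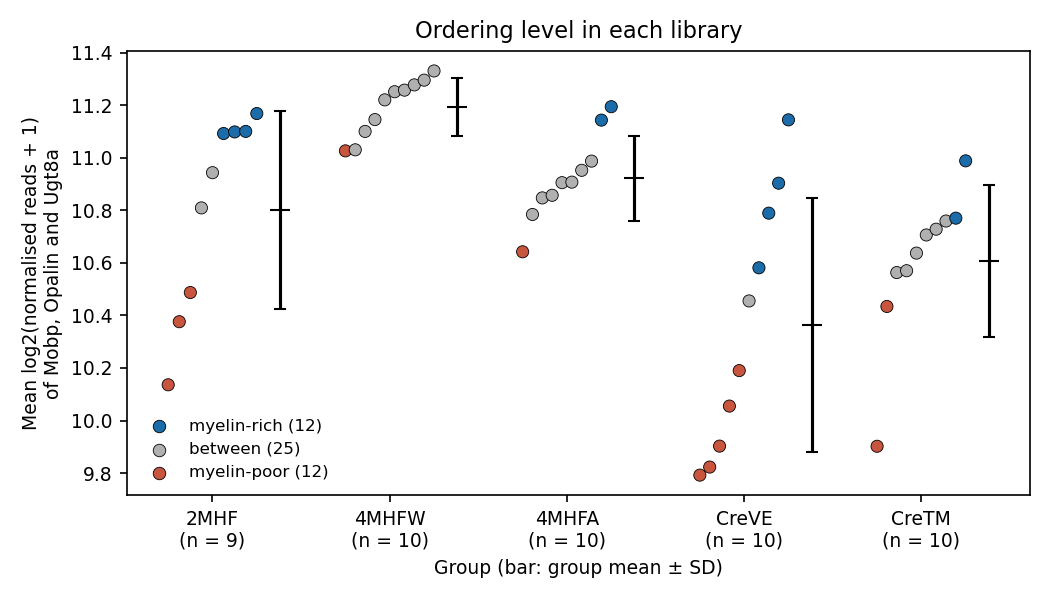
Mean log2(normalised reads + 1) of Mobp, Opalin and Ugt8a in each of 49 libraries, by group; black bars give the group mean and SD and colours the set. The CreVE libraries spread from 9.79 to 11.14, whereas the 4MHFW libraries stay between 11.03 and 11.33.

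The group means of the same 3 genes, which the ordering subtracted, also differed; the genes had been chosen with earlier results of these data known. The level of the 3 genes was 11.19 ± 0.11 (SD, n = 10) in 4MHFW, 10.92 ± 0.16 (n = 10) in 4MHFA, 10.80 ± 0.38 (n = 9) in 2MHF, 10.61 ± 0.29 (n = 10) in CreTM and 10.36 ± 0.48 (n = 10) in CreVE. Wild-type mice at 4 months were higher than at 2 months by 0.39 (two-sided exact permutation test over libraries, adjusted p = 0.00189 over 4 comparisons). The libraries labelled AKO were lower than 4-month wild type by 0.27 (exact permutation adjusted p = 0.00123), and the vehicle-treated transgenic group was lower by 0.83 (exact permutation adjusted p = 0.000173). CreVE and 4MHFW differ in both transgene and injection, which cannot be told apart here. Age was not given, so between 2MHF and 4MHFW it cannot be told apart from time on the diet. Tamoxifen and vehicle groups differed by 0.24, which did not pass (exact permutation adjusted p = 0.187). Libraries of the 2 groups overlapped in all 4 comparisons. The comparisons share the 4MHFW libraries, apart from that of tamoxifen and vehicle. The striatal level described below moved with some of these differences: it was 11.08 ± 0.80 in 4MHFW, 10.56 ± 1.08 in 2MHF and 10.21 ± 1.20 in CreVE, but 11.49 ± 0.56 in 4MHFA, above 4MHFW, where the ordering level was lower. Its part in the group differences was not tested.

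Of 15179 genes tested between the sets, 485 passed (3.2%): 381 were higher in the rich libraries (2.51%) and 104 lower (0.685%) by limma at an adjusted p of 0.05. The lower count depends on single libraries: it was 45 without 2MHF 32, 52 without CreTM 18, 53 without 4MHFA 16, 56 without 4MHFA 14 or CreTM 16, 63 without CreVE 1, 66 without CreTM 9 and 69 without CreVE 39. With 8 libraries on each side 234 genes were higher and 29 lower. Among the 485, 47 belong to lists of oligodendrocyte genes, and these are bound to follow the ordering genes. The direction was the same in all 4 groups that held both sets for 476 of the 485, and for 3170 of all 15179. A call says only that a gene varies with the 3 ordering genes between libraries of a group.

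The oligodendrocyte genes moved together, as a description of what the ordering selected. Myelin structural proteins had 17 of 20 members called higher, with a median difference of 0.58 against -0.01 over all genes tested. Mog, myelin oligodendrocyte glycoprotein on the outer face of the sheath, lay at 10.69, 11.05 and 11.41 in rich and 9.76, 10.30 and 10.93 in poor libraries, a difference of 0.76 (standard error 0.06, adjusted p = 1.3e-06 by limma). It was higher by 0.82, 0.72, 0.68 and 0.76 in the 2MHF, 4MHFA, CreTM and CreVE groups. Cnp, the phosphodiesterase that keeps cytoplasmic channels open in myelin, was higher by 0.63, Mag, the adhesion protein of the innermost wrap, by 0.70 and the tetraspanin Tspan2 by 0.54. The abundant Mbp, named after its values were seen, was higher by 0.71. Structural myelin genes took 0.418% to 0.628% of all reads in rich and 0.311% to 0.535% in poor libraries (medians 0.562% and 0.371%).

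Lipid, iron and metabolic support genes had 9 of 18 members called higher and none lower. Trf, transferrin, which oligodendrocytes make to carry iron, was higher by 0.68 and lay at 13.02, 13.42 and 13.73 in rich and 12.39, 12.71 and 13.55 in poor libraries. Fa2h, which hydroxylates the fatty acids of galactolipids, was higher by 0.74, Gatm, the first enzyme of creatine synthesis, by 0.44 and Qdpr, which regenerates tetrahydrobiopterin, by 0.39. Mature oligodendrocyte genes outside the sheath had 13 of 20 called higher, among them Il33, an alarmin stored in oligodendrocyte nuclei, by 0.59, Gpr37 by 0.66, the sphingosine 1-phosphate receptor S1pr5 by 0.65 and Tmem88b by 0.70.

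Transcription factors had 6 of 11 called higher. Nkx6-2, which acts in late maturation, lay at 8.55, 8.91 and 9.33 in rich and 7.36, 7.97 and 8.69 in poor libraries and was higher by 0.91. St18 was higher by 0.86 and Myrf, the master switch of myelin genes, by 0.50. Olig2, which marks the whole lineage from precursor to mature cell, was higher by 0.28. Of these 4 the difference was largest for Nkx6-2 and smallest for Olig2, and that order was not tested.

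Genes of earlier stages were then counted. Of 12 genes of newly formed oligodendrocytes, 2 were called higher: Bcas1, by 0.71, and Enpp6, by 0.48. None of 14 precursor genes passed, with a median of 0.10. Pdgfra, the growth factor receptor that defines precursors, lay at 10.77, 11.18 and 11.44 in rich and 10.51, 11.003 and 11.29 in poor libraries, a difference of 0.15 (standard error 0.07, adjusted p = 0.30 by limma). Of 16 genes of the node and paranode of the axon, Cntn2, the contactin that clusters potassium channels beside the paranode, was called, by 0.26. None of 10 neurofilament and large axon genes passed. Of 25 genes of cholesterol synthesis, Acat2, which makes the first intermediate from acetyl-CoA, was called, by 0.19, and 21 had a value above 0.

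**Figure D2:**
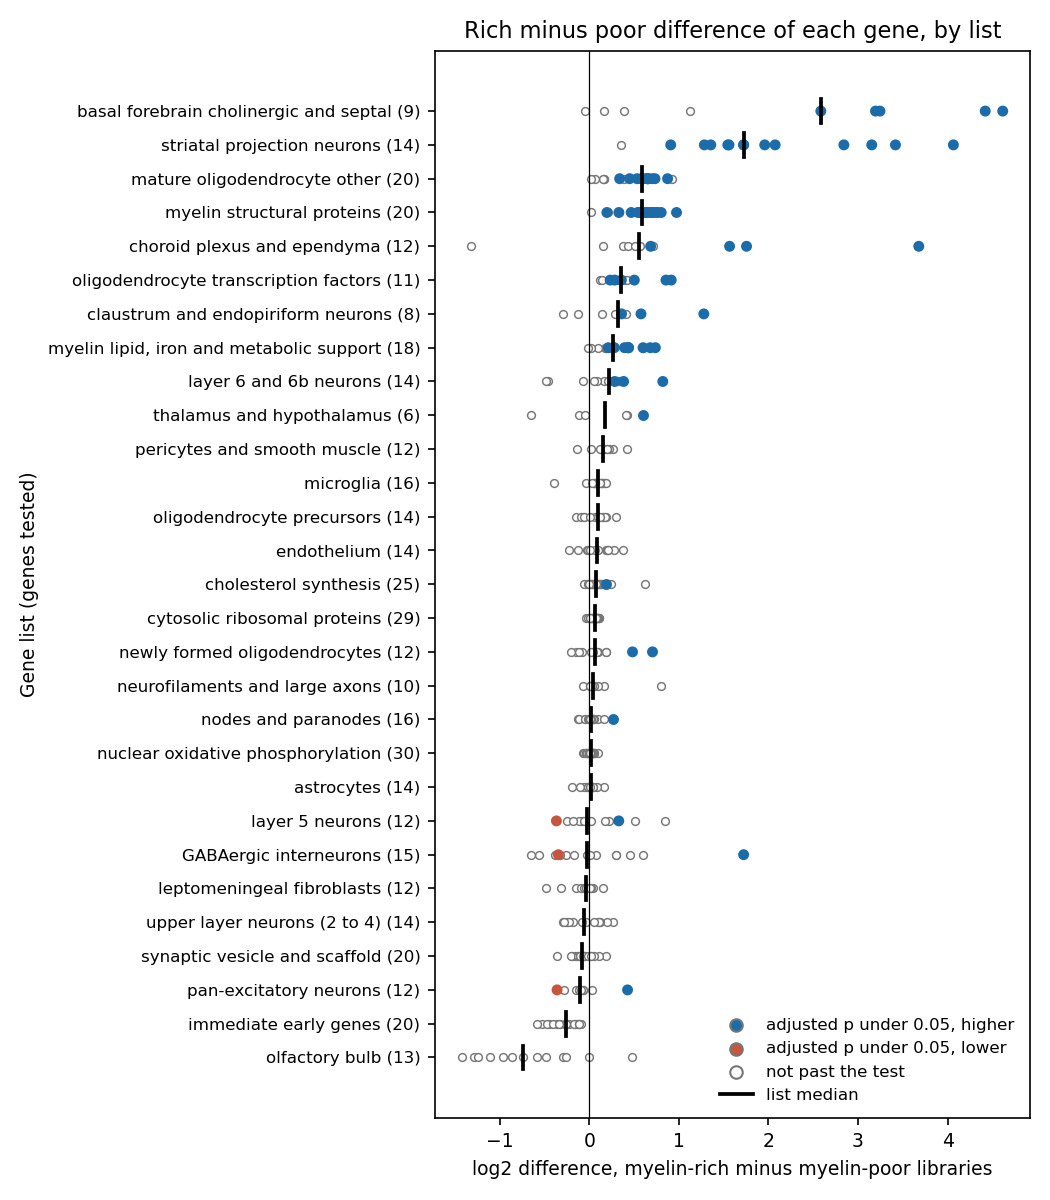
Difference between myelin-rich and myelin-poor libraries (log2, group in the model) for every tested gene, by list; filled points passed an adjusted p of 0.05 and black ticks are list medians. The striatal median of 1.72 lies to the right of the myelin structural median of 0.58; the basal forebrain median of 2.59 becomes 0.75 when at least 50 reads are asked for.

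The largest differences were not in myelin genes. Striatal projection neuron genes had 13 of 14 members called higher and a median of 1.72, larger than any oligodendrocyte list. These neurons send the inhibitory output of the caudate-putamen. Some of the listed genes were low in the poor libraries, such as Drd2, but others were not: Adcy5 had a poor median of 12.80. Drd2, the dopamine D2 receptor, lay at 8.70, 9.96 and 10.52 in rich libraries and 4.70, 5.75 and 10.01 in poor ones. It was higher by 3.42 (standard error 0.46, adjusted p = 0.00011 by limma), or 10.7-fold, and by 3.28, 1.97, 4.40 and 3.51 in 2MHF, 4MHFA, CreTM and CreVE. The poor median lay below the lowest rich library, although the highest poor library was inside the rich range.

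Adora2a, an adenosine receptor coexpressed with Drd2, was higher by 3.15 and Gpr6, a receptor of the same neurons, by 2.84. Rgs9, a striatal brake on G protein signalling, was higher by 1.72, Rarb, the retinoic acid receptor, by 1.28 and Adcy5, the main striatal adenylyl cyclase, by 0.91. Tac1, substance P, which also sits on the interneuron list, was higher by 1.72. Reads of the 14 genes made up 0.116% to 0.277% of each rich library and 0.0545% to 0.178% of each poor one (medians 0.186% and 0.0585%). All 12 rich libraries were above their group mean in the striatal list level and 10 of the 12 poor ones below it. Of the 12 libraries with the highest striatal level, 9 were myelin-rich and 1 was myelin-poor.

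Cholinergic and septal genes of the basal forebrain, the cell groups beneath the striatum, had 5 of 9 tested members called higher, with a median of 2.59. Several are near 0 in poor libraries, and the filter asks for 10 reads in 12 libraries, which the rich set alone can meet. With at least 50 reads asked for, 2 of 6 were called and the median was 0.75. With 8 libraries on each side 2 of 6 were called and the median was 0.62, against 0.69 for the myelin structural list, whereas the striatal list had 12 of 13 called and a median of 1.91. Chat, which makes acetylcholine, lay at 5.63, 7.53 and 8.83 in rich libraries and 1.77, 4.04 and 7.11 in poor ones and was higher by 3.20. Slc5a7, the choline transporter, was higher by 2.59. The acetylcholine transporter Slc18a3 was higher by 3.25, but it lies inside Chat on the same strand, so reads of the pair cannot be told apart. Lhx8, a factor that specifies cholinergic neurons, was higher by 4.42. It was at 0 in at least 1 poor library, so this difference depends on few reads.

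Claustrum, deep layer and ventricle genes were also counted. Of 8 claustrum and endopiriform genes, 3 were called higher: Oprk1, the kappa opioid receptor, by 1.28, Nnat by 0.58 and Gnb4 by 0.36. Nr4a2, at 0.41, did not pass (adjusted p = 0.15 by limma), and 2 of the 8 were lower by value. The list median was -0.02 in CreTM. Of 14 genes of cortical layers 6 and 6b, the deepest next to the white matter, 3 were called higher: Foxp2, at 9.62, 10.13 and 10.80 in rich and 8.84, 9.41 and 9.97 in poor libraries, by 0.82, Sulf1 by 0.38 and Tle4 by 0.28. Foxp2 is also made by striatal neurons. Of 12 choroid plexus and ependyma genes, 4 were called higher, among them Ccdc153, a ciliary gene, by 3.68, Clic6 by 1.76 and Rarres2 by 0.68. Ccdc153 had a median of 1.47 in poor libraries and was at 0 in at least 1 library of each set. Its difference therefore depends on few reads. Clic6 was at -0.05 in 4MHFA, and 1 of the 12 genes was lower by value. The choroid count was 2 of 6 when at least 50 reads were asked for, 1 of 9 with 8 libraries on each side and 1 of 12 when Opalin alone ordered the libraries. Without the 9 CreVE libraries of the sets, 1 of 10 tested choroid genes passed and the claustrum list had 2 higher and 1 lower, while the striatal list still had 13 of 14 and the myelin structural list 17 of 20 higher. Prkcd passed, by 0.60, as the single one of 6 thalamic and hypothalamic genes tested.

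No gene of 14 upper layer genes passed, with Rasgrf2 at -0.25 (adjusted p = 0.085 by limma). Among layer 5 genes, Bcl11b, which striatal neurons also express, rose by 0.33 and Deptor fell by 0.37. Of the pan-excitatory genes, Arpp21 was higher by 0.43 and Neurod1 fell by 0.36, and of the interneuron genes Htr3a fell by 0.35. None of 13 olfactory bulb genes passed. Their median was -0.74 but the groups did not share it: it was -2.46 in 4MHFA and -1.30 in CreVE, against 0.07 in 2MHF and 0.30 in CreTM. The 4MHFA value sets 2 rich libraries against 1 poor library and the CreTM value 2 against 2, so single libraries weigh heavily. Tbx21, a factor of bulb projection neurons, differed by -1.29 (adjusted p = 0.53 by limma).

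Other glia and vessels gave no call between the sets. None of 14 astrocyte, 16 microglia, 14 endothelial, 12 pericyte and smooth muscle or 12 leptomeningeal genes passed. Medians were 0.01, 0.10, 0.09, 0.16 and -0.03. Gjb6, an astrocyte connexin, differed by -0.20 (adjusted p = 0.14), Pecam1, an endothelial adhesion protein, by 0.21 (adjusted p = 0.13) and Rgs5, a pericyte marker, by 0.14 (adjusted p = 0.10), all by limma. As a slope over all 49 libraries, 746 of 15679 genes passed as higher and 457 as lower. Among them, 4 microglial, 3 endothelial and 1 pericyte gene were higher, and 1 endothelial and 1 astrocyte gene lower. With Opalin alone ordering the libraries, 241 of 15193 genes passed as higher and 55 as lower. Among them, 2 microglial genes were higher and 1 astrocyte and 1 endothelial gene lower. With 8 libraries on each side, 234 of 14743 genes passed as higher, with 1 pericyte gene, and 29 as lower, with 1 astrocyte gene. With 16 on each side, 363 of 15421 passed as higher and 65 as lower, the latter with 1 astrocyte and 1 endothelial gene. None of 20 immediate early, 20 synaptic, 30 oxidative phosphorylation or 29 ribosomal protein genes passed. All 20 immediate early genes were lower by value, with a median of -0.26, where 8168 of all 15179 genes were lower. The groups did not share this: the median was 0.16 in 2MHF, -0.11 in 4MHFA, -0.67 in CreTM and -0.60 in CreVE. With Opalin alone ordering the libraries 11 of the 20 were higher, and in the 25 libraries between the sets 18 of the 20 slopes were positive, 5 of them with an unadjusted p under 0.05.

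**Figure D3:**
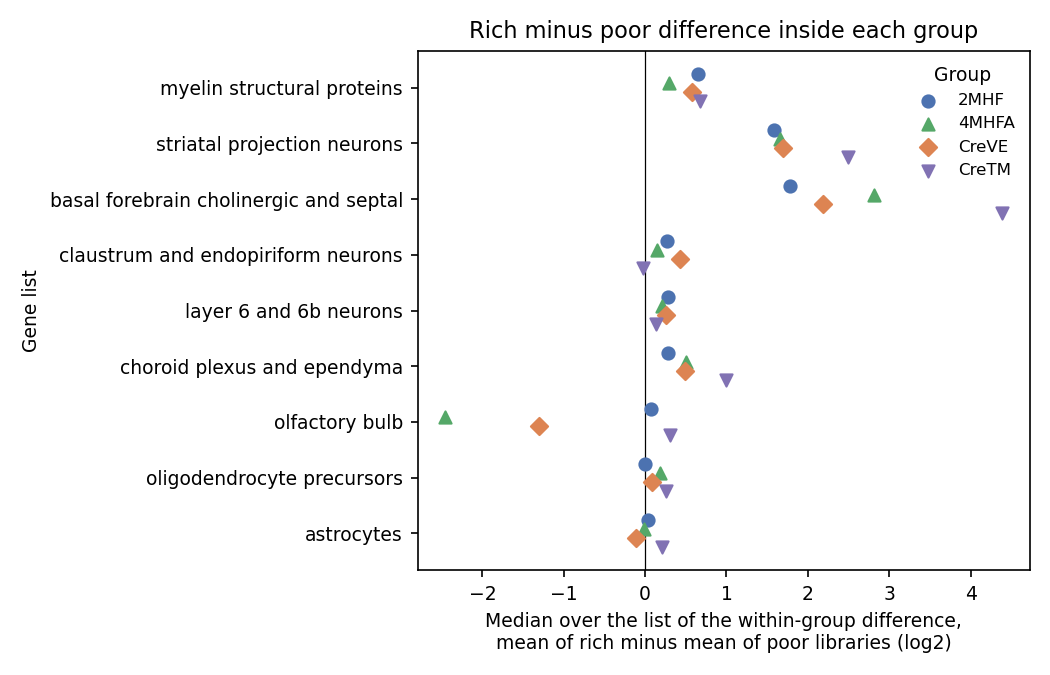
Median over each list of the difference between rich and poor libraries (log2) inside each of the 4 groups that hold both sets. Myelin, striatal and basal forebrain medians are above 0 in all 4 groups. The olfactory bulb median is -2.46 in 4MHFA (2 rich libraries against 1 poor) and 0.30 in CreTM (2 against 2).

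Outside the oligodendrocyte lists, the 10 largest rises were Six3, Drd2, Serpina9, Adora2a, Sh3rf2, Gpr6, Cd4, Slc5a7, Dlk1 and Nts. Six3, a homeobox factor of striatal D2 neurons, lay at 7.499, 8.77 and 9.84 in rich and 0, 4.03 and 8.68 in poor libraries and was higher by 4.54. Serpina9, a protease inhibitor, was higher by 3.16 and Sh3rf2 by 3.08. Cd4, the T cell coreceptor, was higher by 2.77, Dlk1, a Notch-like ligand, by 2.58 and Nts, the neuropeptide neurotensin, by 2.52.

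The falls were smaller. Met, the hepatocyte growth factor receptor, lay at 6.76, 7.21 and 7.97 in rich and 7.62, 7.93 and 8.89 in poor libraries and fell by 0.77 (standard error 0.17, adjusted p = 0.0092 by limma). Adam33 fell by 0.74, the nuclear receptor Pparg by 0.73, the zinc transporter Slc39a2 by 0.62 and the matrix protein Tnc by 0.59. Grm2, a presynaptic glutamate receptor, lay at 10.08, 10.78 and 11.17 against 11.11, 11.26 and 11.79 and fell by 0.55, with only a narrow overlap between the sets. Coro6 fell by 0.55, Runx2 by 0.54 and Crhr1, the receptor of corticotropin-releasing hormone, by 0.53. Mir5125 fell by 0.66, but it lies inside Srrm2 on the same strand, so its reads cannot be told from those of that gene.

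Of 63 genes listed for this text that passed, 53 kept their call when any 1 of the 24 libraries was left out. The other 10 lost it in at least 1 case. Prkcd lost it without 4MHFA 14 (adjusted p = 0.058 by limma), Tnc without any of 7 libraries, Nnat without any of 9, and Deptor, Mir5125, Pparg, Cntn2, Crhr1, Slc39a2 and Enpp6 without any of 14 to 17 libraries, with adjusted p up to 0.11.

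Levels of whole lists were then set against the ordering level over all 49 libraries, both with the group mean removed and permuted within groups (23 lists outside the oligodendrocyte lineage's own, 100000 permutations, Benjamini-Hochberg over the 23). The striatal level followed it, with Pearson r = 0.74 and Spearman rho = 0.74 (permutation adjusted p = 0.00011 for both, the smallest the permutations can give being 1e-05 before adjustment). Without the 2 libraries farthest from the median r was 0.77. It was 0.88 in 2MHF, 0.78 in 4MHFA, 0.71 in CreTM and 0.85 in CreVE, but -0.01 in 4MHFW, where the ordering level varied least. The claustrum level gave r = 0.76 and rho = 0.73 (permutation adjusted p = 0.00011 for both; r = 0.79 without the 2 libraries) and the basal forebrain level r = 0.65 and rho = 0.66 (permutation adjusted p = 0.00023 for both; r = 0.66). The cholesterol synthesis level gave r = 0.52 and rho = 0.48 (permutation adjusted p = 0.011 and 0.007; r = 0.56), with within-group values from -0.01 in CreTM to 0.81 in 2MHF. The choroid level gave r = 0.49 and rho = 0.51 (permutation adjusted p = 0.009 and 0.005; r = 0.46). For layer 6, r = 0.39 passed (permutation adjusted p = 0.038) and rho = 0.31 did not (permutation adjusted p = 0.14). Within groups the claustrum r ran from 0.02 in 4MHFW to 0.96 in 2MHF. The astrocyte level gave r = -0.08 and rho = -0.07 (permutation adjusted p = 0.90 and 0.71). These lists were chosen with earlier results of these data known.

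**Figure D4:**
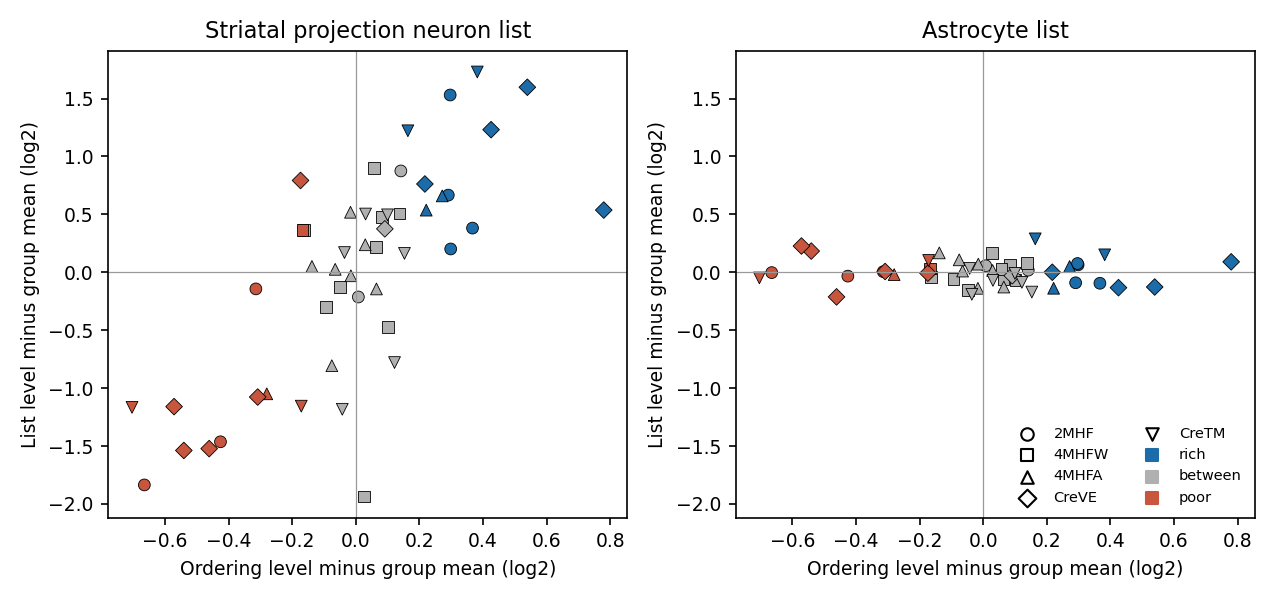
List level against the level of the 3 ordering genes in 49 libraries, both minus the group mean (log2); symbols are groups and colours the sets, and both panels share the vertical scale. The striatal level climbs with the ordering level (r = 0.74) and the astrocyte level stays flat (r = -0.08).

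The 25 libraries that fell in neither set span only -0.16 to 0.15 of the ordering level. There, 0 of 15253 genes passed (0%; 569 at an unadjusted p under 0.05 by limma). Of the 485 called genes, 370 had a slope of the same sign as their difference between the sets, and of all 15118 genes tested in both, 8166 did. The 14 striatal genes all had positive slopes, none with an unadjusted p under 0.05, and the striatal list level had r = 0.21 there. Of the 20 myelin structural genes, 17 had positive slopes and 6 of these an unadjusted p under 0.05. A test of whether slopes on the ordering level differed between the 5 groups called 1 of 15679 genes (0.00638%; 1337 at an unadjusted p under 0.05 by limma).

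When the striatal list level was added to the model as a covariate, no gene passed (0 of 15179; 299 at an unadjusted p under 0.05 by limma). The striatal median went to 0.01, as the covariate imposes. The myelin structural median went from 0.58 to 0.37, with 19 of 20 genes above 0, and Mog was at 0.48 (standard error 0.11), Cnp at 0.43 (0.12) and Trf at 0.46 (0.13). The basal forebrain median went from 2.59 to 0.16. Standard errors were wider than without the covariate, where that of Mog was 0.06.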

How the data were processed

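Values for 24495 genes were deposited as log2 in 1 table by the authors; per the labels' protocols, RNA came from the frontal cortex and libraries from the Illumina TruSeq Stranded mRNA kit. Aligner, counter, build and normalization: not given in the sources used here. After removing the log2 and 1, 99.92% to 100.0% of values up to 200 reads in each library lay within 0.1 of a whole multiple of a step, so the deposited log2 values are log2(reads/size factor + 1); folds of low genes are understated. Reads were recovered from the steps. One value column (1 unused column) matched no sample; 7 genes without whole reads were left out, and 27 symbols turned into dates were restored. No library pair of a group matched within sampling noise (lowest chi-square per gene 6.71).

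The design planned for counts fell back to limma 3.58.1 (R 4.3.3; trend, robust, two-sided, Benjamini-Hochberg) with group and set as terms, on genes that reached 10 reads, scaled to the median depth, in 12 libraries and 15 reads summed over libraries. The ordering genes were left out. List levels are means of log2 values of tested members. Named genes were the 10 largest rises and falls outside oligodendrocyte lists (mean log2 of at least 6, no predicted models) and up to 4 members of each list with the smallest p. The libraries' rule, markers and lists were chosen with earlier results of these data known. Positions are from GRCm38 annotations. Alternatives covered set size, ordering gene, filter, pseudocount, centring, covariates, limma-voom on recovered reads, title numbers as a block, and leaving out libraries or the CreVE group.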

Additional observations from a re-analysis of the deposited data

Results flagged for a closer look

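Dixon's test was applied to 9 levels in 5 groups (45 in all), of which chance flags about 1 in 20, and 5 libraries stood apart. CreTM 21, a myelin-poor library, had an ordering level of 9.90 where the next lowest of its group was 10.43. 4MHFW 13 had a striatal level of 9.15, the next lowest being 10.61. CreTM 9, a myelin-rich library, had an upper layer neuron level of 10.98, against 11.59 for the next. Oligodendrocyte precursor levels were low in 4MHFW 22 (9.85, next 10.05) and in the myelin-poor CreVE 5 (9.72, next 9.95).

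Wdfy1 was the single gene whose slope on the ordering level differed between groups (limma F test, adjusted p = 0.032). The slope was 1.62 (standard error 0.60) in CreTM and -1.15 (0.29) in CreVE, against -0.07 (0.10) in 2MHF, -0.22 (0.24) in 4MHFA and -0.02 (0.35) in 4MHFW. Its mean level was 10.93 in CreTM and 10.87 in CreVE, but 9.41, 9.34 and 9.32 in the other groups.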

How the results depend on the processing

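The 485 genes called by limma became 263 with 8 libraries on each side (242 shared), 296 when Opalin alone ordered the libraries (202 shared) and 1203 (449 shared) as a slope over 49 libraries. With striatal, olfactory bulb and choroid levels as covariates 0 passed (397 at an unadjusted p under 0.05), with the striatal level alone 0 (299), and in CreVE alone, with 4 against 5 libraries, 0 (960). Other settings gave 400 to 494, among them 494 by limma-voom and 400 without CreVE (288 shared). Leaving out 1 library gave 345 (without CreTM 18) to 562 (without CreVE 11). With the 33 libraries left when 8 are taken per side, 9 genes had a slope, against 0 in the 25. Titles do not say whether a shared number pairs samples. Same-numbered libraries had correlations of -0.49 to 0.22 between 4MHFA and 4MHFW (5 numbers) and -0.30 to 0.28 between 4MHFA and CreTM (3). These are too few to decide it, and pairs of unlike number were not compared. With title numbers as a replicate block 479 genes passed, all among the 485. The ordering level of 4MHFA minus 4MHFW was then -0.29 over 5 shared numbers (adjusted p = 0.083 by an exact permutation test, where 5 pairs allow no p below 0.0625). Leaving out 1 library moved that difference between -0.30 and -0.24, 4MHFW minus 2MHF between 0.31 and 0.44, CreTM minus CreVE between 0.18 and 0.33, and CreVE minus 4MHFW between -0.92 and -0.77, with no change of call.

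Signs of 14 of 69 named genes turned with the 3 covariates: Six3 -0.47, Serpina9 -0.29, Slc5a7 -0.25, Nts -0.39, Pparg 0.099, Crhr1 0.16, Pdgfra -0.00042, Clic6 -0.65, Deptor 0.13, Nnat -0.15, Tac1 -0.081, Rgs9 -0.0069, Lhx8 -0.29 and Prkcd -0.11. With the striatal level alone 11 turned: Six3 -0.38, Drd2 -0.028, Serpina9 -0.080, Adora2a -0.034, Nts -0.24, Crhr1 0.11, Gjb6 0.0064, Clic6 -0.16, Deptor 0.070, Tac1 -0.071 and Rgs9 -0.011. Drd2, Adora2a, Tac1 and Rgs9 belong to the striatal list that made the covariate. In the fit with 3 covariates, Clic6 likewise belongs to the choroid list. A covariate removes the mean difference of its own list, so the signs of these members carry no result. For the other genes the cause was not tested. Genes near 0 reads, such as Lhx8, are limited by depth.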
